A study of Mus musculus with 15 samples.

Results

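The genes described here are 10 that move cholesterol out of lysosomes, esterify it, release it from esters, store it and export it, together with LXR targets of the same circuit: Npc1, Npc2, Soat1, Soat2, Nceh1, Plin2, Abca1, Abcg1, Lpcat3 and Mylip. They were chosen by symbol, and all 10 were found among the 54343 gene entries of the MC38 table and the 55303 of the B16-F10 table. Messenger RNA was sequenced in 15 libraries of 2 mouse tumour lines whose Ssbp4 level was altered. MC38, a colon adenocarcinoma line, gave 3 libraries of cells stably overexpressing murine Ssbp4 from the retroviral vector pMSCV-IRES-EGFP (OE) and 4 libraries labelled wild type (WT), for which the labels name no empty-vector group. B16-F10, a melanoma line, gave 4 libraries of cells electroporated with Cas9 and a mixture of Ssbp4 guide RNAs (KO) and 4 wild-type libraries (WT). The protocol describes a control guide against an intergenic site for this line, and it names no cloning step, so the KO libraries are taken as edited populations. All groups were grown in medium with fetal bovine serum. Whether libraries came from independent cultures is not stated, and the p-values rest on the variation among libraries, which may be technical.

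Cholesterol taken up with lipoproteins is released in the lysosome, where the soluble protein NPC2 hands it to the membrane protein NPC1 for egress. Sterol that reaches the endoplasmic reticulum can be esterified by the acyltransferases SOAT1 and SOAT2 and stored in droplets coated by perilipins such as PLIN2. NCEH1 hydrolyses cholesteryl esters again. The oxysterol-sensing receptors LXR induce the exporters ABCA1 and ABCG1, the phospholipid acyltransferase LPCAT3, which places polyunsaturated chains in phospholipids, and MYLIP, a ubiquitin ligase that marks lipoprotein receptors for degradation. The LXR side of this circuit is best known from macrophages and liver.

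The values are FPKM, fragment numbers scaled by the authors to gene length and to the mapped fragments of each library, and the 2 tables were normalised separately. Depth, estimated from the spacing of low values, was 32.6 to 48.5 M fragments per library. Ssbp4 stood at 462 to 581 FPKM in MC38 OE cells and 13.2 to 17.6 FPKM in MC38 WT cells, and at 19.0 to 24.3 FPKM in B16-F10 KO cells and 32.4 to 37.4 FPKM in B16-F10 WT cells, so every library followed its label and the KO libraries still held Ssbp4 mRNA. Both lines are labelled melanoma tissue. The 8 melanocyte markers summed to 14042 to 14571 FPKM in B16-F10 KO and 11289 to 14510 FPKM in B16-F10 WT libraries, but to only 0.934 to 1.44 FPKM in MC38 OE and 1.30 to 2.11 FPKM in MC38 WT libraries. Epithelial markers were low in MC38 (8.96 to 10.8 FPKM summed in OE, 6.68 to 8.86 FPKM in WT), with Cdx2 at 0 throughout and Epcam listed at 0 in every OE library and at 0.658 to 1.05 FPKM in WT. Within that sum Krt8 was called higher, at 9.45 FPKM in OE and 3.22 FPKM in WT cells (log2 fold change 1.31), and Krt18, which passed the filter on low values through WT cells, stood at 0.0607 FPKM in OE and 3.23 FPKM in WT cells. B16-F10 WT libraries fell into unlike pairs along the leading principal component (42.8% of variance). On it WT 1 and 2 lay at -9.42 and -10.3, WT 3 and 4 both at 17.8, and the KO libraries between -7.81 and -1.91. On the second component (28.2% of variance) KO 1 to 3 lay between -11.1 and -8.68 and KO 4 apart from them at -1.04. Every B16-F10 WT library lay at 3.90 or higher on that component. For estimated fragments of genes with a single annotated transcript, the chi-square per degree of freedom was 6.10 between WT 1 and 2 and 6.42 between WT 3 and 4, but 34.3 to 36.9 across these pairs, so the 4 WT libraries were not equally spaced replicates, although the tests treat them as 4. Among B16-F10 KO libraries it was 5.86 to 10.7 within KO 1 to 3 and 17.4 to 26.2 between these and KO 4. MC38 WT libraries were not evenly spaced either, at 37.4 between WT 2 and 3 and 14.7 to 17.0 for the other WT pairs.

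Called means an adjusted p under 0.05 in limma on log2(FPKM + 1), fitted on all genes with a mean of at least 1 FPKM in the line and adjusted over all of them by the Benjamini-Hochberg method. This filter kept 8 of the 10 genes in each line: Abca1 and Abcg1 fell below it in MC38, and Soat2 and Abcg1 in B16-F10. Fold changes on this scale understate the change of low genes.

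The stretch of 250 bases upstream of the annotated start is shown for the 5 genes that were called higher in at least 1 line, from the RefSeq promoter table on GRCm38.p6, in which 7 of the 10 genes were matched for this purpose. The windows are chr4:53159896-53160145 on the minus strand, chr12:84773113-84773362 on the minus strand, chr3:27182754-27183003 on the plus strand, chr6:124662854-124663103 on the plus strand and chr4:86670060-86670309 on the minus strand. Each runs 5′ to 3′ towards the start of the gene, and capitals mark CCAAT (or ATTGG on this strand), CACGTG and a relaxed form of the direct repeat that LXR binds, TNACC followed after 5 bases by TNACC.
Abca1: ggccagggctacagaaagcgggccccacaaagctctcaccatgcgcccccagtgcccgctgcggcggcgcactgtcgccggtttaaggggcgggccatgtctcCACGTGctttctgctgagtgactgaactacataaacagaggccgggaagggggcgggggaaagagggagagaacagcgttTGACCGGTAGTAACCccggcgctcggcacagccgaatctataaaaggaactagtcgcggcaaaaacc
Npc2: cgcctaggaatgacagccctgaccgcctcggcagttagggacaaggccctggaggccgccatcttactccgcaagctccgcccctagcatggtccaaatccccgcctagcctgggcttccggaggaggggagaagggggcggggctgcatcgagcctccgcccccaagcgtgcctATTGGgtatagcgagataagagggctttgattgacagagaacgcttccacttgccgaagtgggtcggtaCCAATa
Nceh1: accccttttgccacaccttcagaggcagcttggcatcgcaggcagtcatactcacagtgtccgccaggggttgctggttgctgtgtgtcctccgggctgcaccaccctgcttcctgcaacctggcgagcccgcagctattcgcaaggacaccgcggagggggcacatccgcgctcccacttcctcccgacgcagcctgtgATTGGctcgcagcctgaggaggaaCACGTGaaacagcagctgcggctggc
Lpcat3: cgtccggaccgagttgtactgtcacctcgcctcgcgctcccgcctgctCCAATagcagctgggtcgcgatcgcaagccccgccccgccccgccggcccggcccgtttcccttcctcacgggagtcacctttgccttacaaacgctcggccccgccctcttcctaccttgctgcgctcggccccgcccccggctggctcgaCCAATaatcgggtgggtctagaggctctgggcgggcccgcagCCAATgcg
Plin2: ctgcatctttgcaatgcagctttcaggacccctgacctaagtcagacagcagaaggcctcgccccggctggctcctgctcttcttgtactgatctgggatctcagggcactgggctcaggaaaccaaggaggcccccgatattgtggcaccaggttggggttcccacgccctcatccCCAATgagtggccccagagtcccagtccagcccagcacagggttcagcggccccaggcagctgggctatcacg
Both strands were searched in the 7 windows. The relaxed repeat was found in Abca1 alone, 67 to 53 bases upstream of the start, and in 0.621% of 32851 windows of this length. The strict repeat (AGGTCA, 4 bases, AGGTCA), the lysosomal gene motif (CACGTG with GT before it and AC after it) and the sterol element (ATCAC followed directly by CCCAC) were in none of the 7 windows, and in 0.0152%, 0.241% and 0.0731% of all windows. The shorter CACGTG, contained in the lysosomal motif, was in the windows of Abca1 and Nceh1 and in 6.02% of all windows. CCAAT was in 6 of the 7 windows, all but that of Abca1, and in 33.9% of all windows, and the GC box GGGCGG was in 4, those of Abca1, Lpcat3, Mylip and Npc2, and in 32.7%. Such matches describe letters, not bound sites.

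**Figure D1:**
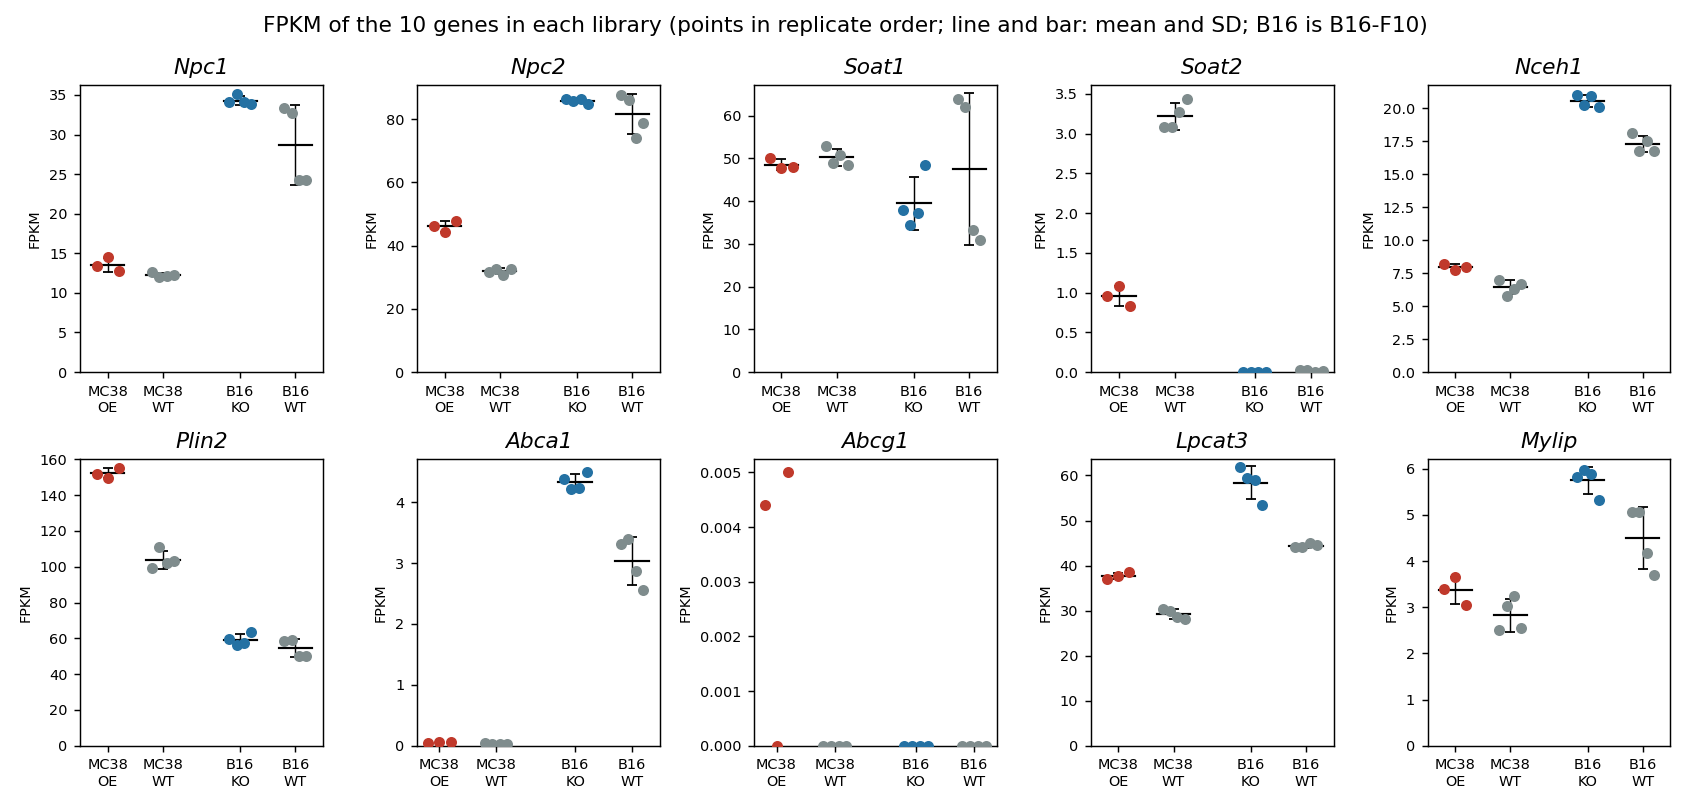
FPKM of each of the 10 genes in every library of MC38 (OE left of WT) and B16-F10 (KO left of WT), with the group mean and SD as a line and bar where the mean was at least 0.1 FPKM. Npc2 and Plin2 of MC38 OE cells lie above all MC38 WT libraries, Soat2 lies below them, and Soat1 of B16-F10 WT cells splits into 62.0 and 63.9 against 30.8 and 33.3 FPKM.

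Levels, which FPKM gives per gene length, were ordered as follows. In MC38 WT cells the order was Plin2 (104 FPKM), Soat1 (50.2), Npc2 (31.9), Lpcat3 (29.3), Npc1 (12.2), Nceh1 (6.43), Soat2 (3.22), Mylip (2.83), Abca1 (0.0327) and Abcg1, listed at 0 in all 4. Soat2 and Mylip overlapped there, at 3.08 to 3.44 and 2.51 to 3.23 FPKM. In MC38 OE cells Soat1 (47.7 to 50.01 FPKM) and Npc2 (44.4 to 47.9 FPKM) overlapped, and Soat2 (0.830 to 1.08 FPKM) stood below Mylip (3.05 to 3.64 FPKM). In B16-F10 KO cells Npc2 led at 85.9 FPKM, followed by Plin2 (59.2) and Lpcat3 (58.4), whose libraries overlapped, then Soat1 (39.5), Npc1 (34.3), Nceh1 (20.6), Mylip (5.75) and Abca1 (4.33). In B16-F10 WT cells the order was Npc2 (81.6), Plin2 (54.4), Soat1 (47.5), Lpcat3 (44.4), Npc1 (28.7), Nceh1 (17.3), Mylip (4.50) and Abca1 (3.04), and libraries of Plin2, Soat1 and Lpcat3 overlapped. Abca1 stood above 1 FPKM in every B16-F10 library and near 0 in MC38, and Soat2 stood near 0 in B16-F10. These levels come from separately normalised tables and were not tested against each other.

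Overexpression of Ssbp4 in MC38 went with more mRNA of the lysosomal carrier Npc2, the droplet coat Plin2, the acyltransferase Lpcat3 and the ester hydrolase Nceh1, and with less Soat2. Of the 8 tested genes, 4 rose and 1 fell, where 23.9% of all 10748 tested genes were called higher and 23.6% lower. The gene that fell, Soat2, passed the filter on low values through its WT libraries, where it is high. Its call is not used as support, though the counts given here include it. Either direction was called for 5 of 8, against 47.5% of all genes, and 6 of 8 had an unadjusted p under 0.05, against 54.3%. OE and WT libraries were separate for 6 of 8, against 50.6% of all genes (25.5% with OE higher and 25.1% with OE lower). The median log2 fold change was 0.23 over the 8 genes and -0.01 over all genes. In such RNA from whole cultures, fewer expressing cells and less RNA per cell cannot be told apart. The fibroblast markers moved in the same libraries: their sum was 386 to 394 FPKM in OE and 82.4 to 87.8 FPKM in WT cells, with 4 of 7 tested. Lum stood at 2.19 FPKM in OE and 0.219 FPKM in WT cells, and Pdgfrb at 1.88 FPKM in OE and 0.424 FPKM in WT cells. Both passed the filter on low values through the OE libraries, where they are high, so their calls are not used as support. Dcn rose, at 320 FPKM in OE and 65.6 FPKM in WT cells, and Pdgfra rose, at 66.1 FPKM in OE and 17.6 FPKM in WT cells. The other fibroblast markers fell below the filter. Col1a1 was at 0.126 to 0.211 FPKM in OE and 0.0264 to 0.0827 FPKM in WT libraries, without overlap. Col1a2 overlapped, at 0.403 to 0.621 FPKM in OE and 0.287 to 0.478 FPKM in WT libraries, and Thy1 was at 0.0149 FPKM or lower. The part of the fibroblast markers in the results was not tested. Leukocyte markers, which matter because macrophages are rich in this pathway, summed to 5.46 to 6.70 FPKM in OE and 3.81 to 5.87 FPKM in WT libraries. Most of that sum was Cd68 and Cd14. Cd68 was called higher, at 3.52 FPKM in OE and 2.49 FPKM in WT cells (log2 fold change 0.38, limma adjusted p = 0.0163), though not without OE 1 (0.0714) or with no filter (0.0785), and Ptprc stood at 0.0187 FPKM or lower and Tyrobp at 0 in every MC38 library.

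Knockout of Ssbp4 in B16-F10 went with more mRNA of Abca1, Lpcat3 and Nceh1. Of the 8 tested genes 3 rose and 0 fell, where 1.33% of all 10902 tested genes were called higher, 0.899% lower and 2.23% in either direction. Of all called genes 59.7% were higher, a share that was 73.1% with rescaling to a common total and 39.8% with median-of-ratios scaling, and all 3 calls among the 8 genes held under both. An unadjusted p under 0.05 was reached by 5 of 8, all higher, against 21.3% of all genes. KO and WT libraries were separate for 5 of 8, all with KO higher, against 13.9% of all genes (8.53% with KO higher and 5.32% with KO lower). The median log2 fold change was 0.25 over the 8 genes and 0.02 over all genes. WT libraries 3 and 4 were both below WT 1 and 2 for 6 of the 8 genes, against 35.8% of all genes, and both above them for 1, Lpcat3, against 36.5%. Fibroblast markers summed to 6.42 to 9.29 FPKM in KO and 4.90 to 6.38 FPKM in WT libraries, with Pdgfrb called higher of 2 tested (limma adjusted p = 0.00869, and 0.0522 without KO 2), and leukocyte markers to 2.34 to 4.04 FPKM in KO and 1.86 to 3.13 FPKM in WT libraries, with Ptprc, Adgre1, Itgam, Cd14 and Tyrobp at 0. Their part in the results was not tested. The count of calls among the 8 genes changed when single libraries were left out. It was 0 without KO 2 or KO 3, 1 without KO 1, WT 1, WT 3 or WT 4, 2 without WT 2 and 3 without KO 4. The count over all tested genes, 243 with every library, was 23 to 414 in the same fits, the highest being that without KO 4.

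**Figure D2:**
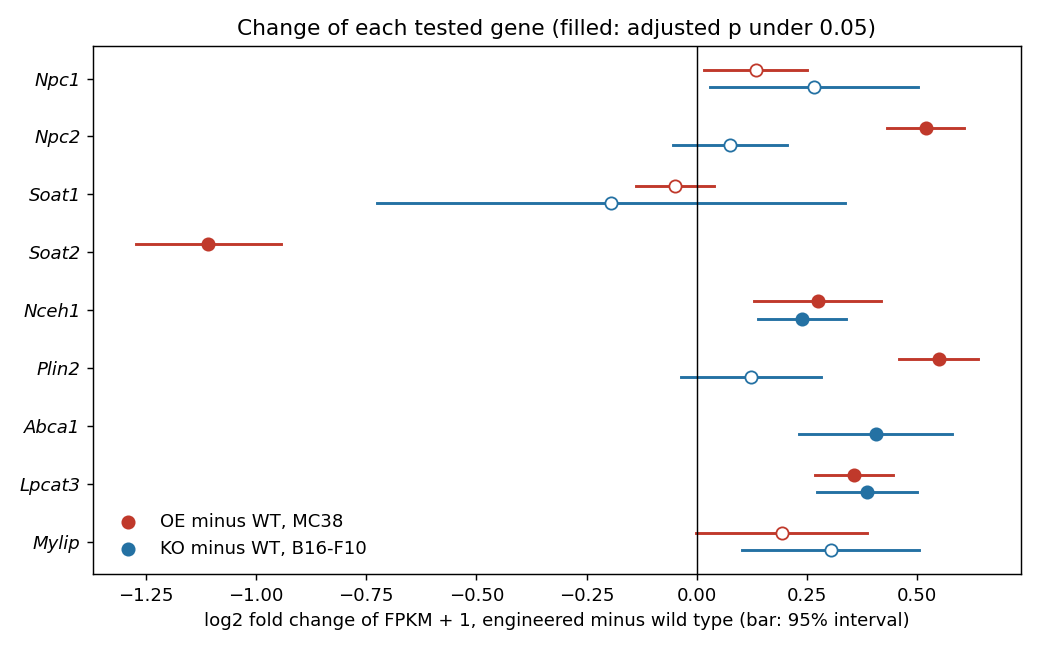
Fold change of FPKM + 1 on the log2 scale for each tested gene, OE minus WT in MC38 (red, upper) and KO minus WT in B16-F10 (blue, lower), with 95% intervals from limma. Filled points were called. Soat2 at -1.11 is the only filled point below 0, Npc2 and Plin2 are filled in MC38 alone, and Nceh1 and Lpcat3 are filled in both lines.

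Of the lysosomal egress pair, Npc2 rose in MC38 and neither gene was called in B16-F10. Npc2 had 46.2, 44.4 and 47.9 FPKM in MC38 OE cells, against 31.6, 32.7, 30.8 and 32.5 FPKM in MC38 WT cells. Every OE library lay above every WT library, with means of 46.2 ± 1.75 FPKM (SD, n = 3) in OE and 31.9 ± 0.873 FPKM (SD, n = 4) in WT cells. The limma fold change was 0.52 on the log2 scale (SE 0.04, adjusted p = 3.55e-06). In B16-F10, Npc2 had 86.4, 85.9, 86.3 and 84.8 FPKM in KO cells, against 87.7, 86.0, 74.1 and 78.6 FPKM in WT cells. These groups overlapped, since WT 1 and 2 were at the level of the KO libraries, and the difference was not called (0.08, 95% interval -0.05 to 0.20, limma adjusted p = 0.488). With single libraries left out it was 0.03 to 0.11 and never called.

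Npc1, the membrane partner, moved less. It had 13.3, 14.5 and 12.7 FPKM in MC38 OE cells, against 12.7, 11.95, 12.1 and 12.2 FPKM in MC38 WT cells. The groups did not overlap, by a narrow gap between OE 3 and WT 1, and the difference was not called (0.13, SE 0.05, limma adjusted p = 0.0586). It passed without OE 3 (adjusted p = 0.0372) and with libraries rescaled to a common total (adjusted p = 0.0413). In B16-F10, Npc1 had 34.0, 35.1, 34.1 and 33.8 FPKM in KO cells, against 33.3, 32.8, 24.3 and 24.3 FPKM in WT cells. All KO libraries were above all WT libraries, but WT 1 and 2 lay within 1.5 FPKM of the lowest KO library, and the difference was not called (0.27, SE 0.11, limma adjusted p = 0.193), nor was it with any single library left out (0.19 to 0.34). In the annotation used, exons of Npc1 overlap those of Rmc1 on the opposite strand, and the counting rule is not given in the sources used here. Rmc1 averaged 16.05 FPKM in MC38 OE and 16.4 FPKM in MC38 WT cells, and 9.41 FPKM in B16-F10 KO and 8.34 FPKM in B16-F10 WT cells, with no call in either line. Within single libraries Npc2 stood at 3.06 to 3.76 times Npc1 in MC38 OE and 2.49 to 2.74 times in MC38 WT cells, and at 2.45 to 2.54 times in B16-F10 KO and 2.62 to 3.24 times in B16-F10 WT cells.

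The esterifying pair behaved unlike in MC38: Soat2 fell and Soat1 was not called. Soat2, the isoform best known from intestine and liver, had 0.963, 1.08 and 0.830 FPKM in OE cells, against 3.08, 3.09, 3.27 and 3.44 FPKM in WT cells. No library of one group came near the other, and the OE mean was 0.298 times the WT mean. The log2 fold change was -1.11 (SE 0.07, limma adjusted p = 1.32e-06), a size reached by only 1.62% of tested genes, and -1.66 with a pseudocount of 0.1. Soat2 passed the filter on low values through its WT libraries, as its OE mean was 0.958 FPKM. In B16-F10 Soat2 was listed at 0 in all 4 KO libraries and at 0.0277, 0.0290, 0 and 0.0139 FPKM in WT cells, which by the annotated exon length are about 2.97, 2.98, 0 and 1.00 fragments. A count of 0 allows up to 3 fragments, or 0.0292 to 0.0348 FPKM in the KO libraries, so no difference was detectable at this depth (exact permutation test, two-sided, p = 0.143, the smallest possible being 0.0286).

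Soat1, the widely expressed isoform, had 50.01, 47.7 and 47.9 FPKM in MC38 OE cells, against 52.8, 49.0, 50.7 and 48.5 FPKM in MC38 WT cells. The groups overlapped and the difference was not called (-0.05, 95% interval -0.14 to 0.04, limma adjusted p = 0.343). It was called only after each chromosome was centred on its median (-0.12, adjusted p = 0.0282), a centring on the median level of the chromosome in each library. Soat1 mRNA was 44.2 to 57.7 times that of Soat2 in MC38 OE libraries and 14.1 to 17.2 times in MC38 WT libraries. In B16-F10, Soat1 had 37.8, 34.4, 37.2 and 48.5 FPKM in KO cells, against 63.9, 62.0, 33.3 and 30.8 FPKM in WT cells. The WT libraries straddled the KO libraries, KO 4 was the highest of its group, and the difference was not called (-0.19, 95% interval -0.72 to 0.34, limma adjusted p = 0.687). It was -0.03 without WT 1, -0.04 without WT 2, -0.33 without WT 3 and -0.37 without WT 4, and it was not called with any single library left out. The spread between WT libraries, a coefficient of variation of 37.7%, was the largest of the 8 tested genes. The summed melanocyte markers split the same WT libraries, at 14419 and 14510 FPKM in WT 1 and 2 and 11296 and 11289 FPKM in WT 3 and 4, and their part in the Soat1 values was not tested.

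**Figure D3:**
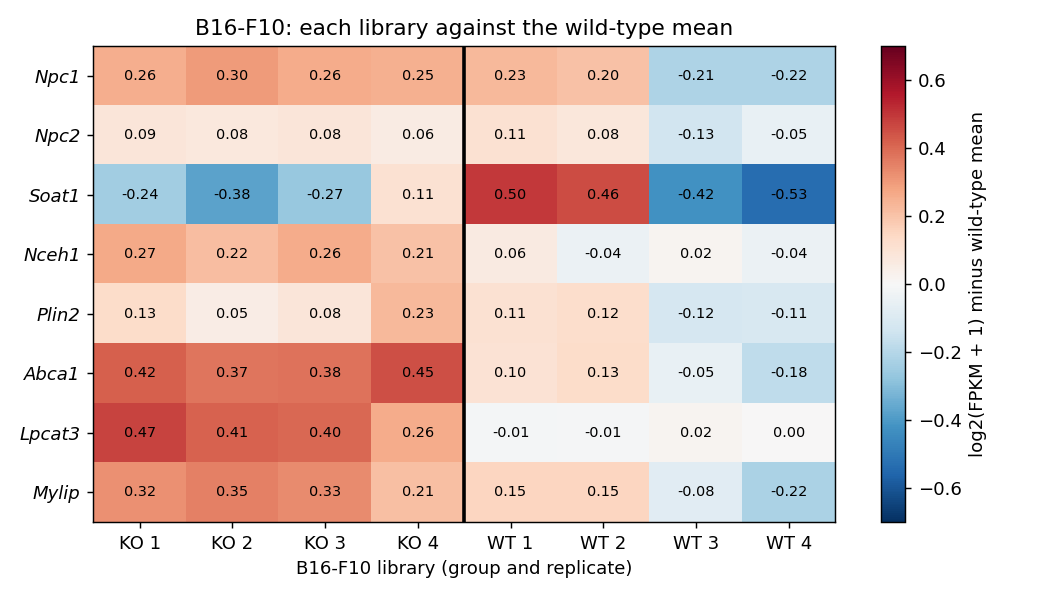
Each B16-F10 library (KO 1 to 4 on the left, WT 1 to 4 on the right) as log2(FPKM + 1) minus the mean of the 4 WT libraries, for the 8 tested genes. Soat1 runs from 0.50 in WT 1 to -0.53 in WT 4, whereas Lpcat3 stays within 0.02 of the mean in WT libraries and lies at 0.26 to 0.47 in KO libraries.

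Nceh1, which releases cholesterol from stored esters, was called higher in both lines. It had 8.19, 7.73 and 8.00 FPKM in MC38 OE cells, against 6.95, 5.75, 6.33 and 6.68 FPKM in MC38 WT cells. The groups did not overlap, and the log2 fold change was 0.27 (SE 0.06, limma adjusted p = 0.00573). In B16-F10 it had 21.0, 20.3, 20.9 and 20.1 FPKM in KO cells, against 18.1, 16.8, 17.5 and 16.8 FPKM in WT cells. Again every KO library was above every WT library, and here WT 3 and 4 did not stand apart. The log2 fold change was 0.24 (SE 0.04, limma adjusted p = 0.0391). That call did not hold without WT 1, 2, 3 or 4 (adjusted p = 0.0516, 0.0634, 0.0739 and 0.0945) or without KO 1, 2 or 3 (0.124, 0.138 and 0.141), and held without KO 4 (0.0373), while the fold change stayed at 0.22 to 0.26.

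Plin2, the droplet coat protein that also rises with fatty acid load, was the most abundant of the 10 genes in MC38. It had 152, 149.7 and 155 FPKM in OE cells, against 99.2, 111, 102 and 103 FPKM in WT cells. The groups were far apart, and the log2 fold change was 0.55 (SE 0.04, limma adjusted p = 2.90e-06). In B16-F10 it had 59.5, 56.3, 57.5 and 63.6 FPKM in KO cells, against 58.5, 59.1, 49.98 and 50.04 FPKM in WT cells. The groups overlapped, with WT 1 and 2 inside the KO range, and the difference was not called (0.12, 95% interval -0.03 to 0.28, limma adjusted p = 0.351), nor was it with any single library left out (0.08 to 0.16).

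Of the LXR-induced exporters, Abca1 was measurable in B16-F10 and rose there. It had 4.38, 4.21, 4.24 and 4.49 FPKM in KO cells, against 3.31, 3.401, 2.87 and 2.56 FPKM in WT cells. All KO libraries were above all WT libraries, the KO libraries differing little among themselves, with means of 4.33 ± 0.130 FPKM in KO and 3.04 ± 0.391 FPKM in WT cells (SD, n = 4 each, called by limma). The log2 fold change was 0.41 (SE 0.08, limma adjusted p = 0.0402). The call held without WT 2 or KO 4 but not without KO 1, 2 or 3 (adjusted p = 0.126, 0.138 and 0.140) or WT 1, 3 or 4 (0.0516, 0.0801 and 0.0847), nor with no filter (0.0929) or chromosomes centred (0.0537). The fold change over these left-out fits was 0.35 to 0.45.

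In MC38 Abca1 was close to absent, at 0.0480, 0.0588 and 0.0681 FPKM in OE cells, against 0.0419, 0.0280, 0.0282 and 0.0328 FPKM in WT cells. By the annotated exon length these are about 19.1, 21.2 and 24.2 fragments in OE libraries and 16.1, 11.1, 10.1 and 11.1 fragments in WT libraries. Each OE library was above each WT library (exact permutation test, two-sided, p = 0.0286, the smallest this design allows), but the difference did not pass in limma without a filter (adjusted p = 0.0931). Abcg1 was listed at 0 in all 8 B16-F10 libraries and all 4 MC38 WT libraries, and at 0.00440, 0 and 0.00500 FPKM in MC38 OE cells, about 1 fragment where not 0. A count of 0 allows up to 0.0126 FPKM in the shallowest library, so any Abcg1 mRNA was below detection at this depth.

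Lpcat3 was called higher in both lines. It had 37.1, 37.6 and 38.5 FPKM in MC38 OE cells, against 30.4, 29.99, 28.5 and 28.2 FPKM in MC38 WT cells, without overlap, a log2 difference of 0.36 (SE 0.04, limma adjusted p = 5.09e-05). In B16-F10 it had 61.9, 59.4, 59.0 and 53.4 FPKM in KO cells, against 44.1, 44.1, 44.9 and 44.6 FPKM in WT cells. The WT libraries were tight, with a coefficient of variation of 0.923%, and each KO library lay above them. The log2 difference was 0.39 (SE 0.05, limma adjusted p = 0.0104). Lpcat3 was not called without KO 2 (adjusted p = 0.0610) or KO 3 (0.0600) and was called without any other single library, its fold change staying at 0.36 to 0.43. Exons of Lpcat3 overlap those of Emg1 on the opposite strand. Emg1 fell in MC38 (89.0 FPKM in OE and 109 FPKM in WT cells, limma log2 fold change -0.29, adjusted p = 3.06e-04) and was not called in B16-F10 (118 FPKM in KO and 124 FPKM in WT cells, adjusted p = 0.392), so it did not share the rise.

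Mylip, which limits lipoprotein uptake, was not called in either line. It had 3.401, 3.64 and 3.05 FPKM in MC38 OE cells, against 2.51, 3.02, 3.23 and 2.54 FPKM in MC38 WT cells, with overlap (0.19, 95% interval -0.0016 to 0.39, limma adjusted p = 0.0945). Without WT 3 it passed (adjusted p = 0.0474). In B16-F10 it had 5.82, 5.97, 5.88 and 5.33 FPKM in KO cells, against 5.06, 5.06, 4.18 and 3.70 FPKM in WT cells. All KO libraries were above all WT libraries, yet the difference was not called (0.30, 95% interval 0.10 to 0.50, limma adjusted p = 0.1003), nor was it with any single library left out (0.23 to 0.35).

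The changes were then compared between the lines, as OE minus WT in MC38 less KO minus WT in B16-F10, for the 9739 genes tested in both. The manipulations of Ssbp4 run in opposite directions and differ in size. Of the 7 genes tested in both lines, 2 differed, where 25.8% of all genes did (11.4% with the larger value in MC38 and 14.4% with the smaller): Npc2 (difference 0.44, SE 0.07, limma adjusted p = 3.55e-04) and Plin2 (0.43, SE 0.09, adjusted p = 0.00230), both with the larger rise in MC38. For Lpcat3 the difference was -0.03 with a 95% interval of -0.17 to 0.11, and for Nceh1 it was 0.04 with an interval of -0.12 to 0.20. The intervals for Npc1 (-0.40 to 0.14), Mylip (-0.39 to 0.16) and Soat1 (-0.44 to 0.73) were wider. Soat2 and Abca1 were each tested in 1 line only, so their change could not be compared.

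The partners of these genes were taken from 9 lists of sterol-handling genes. Beside the MC38 counts below, 23.9% of all tested genes were called higher and 23.6% lower. An unadjusted p under 0.05 in limma was reached by 54.3% of them in either direction. In MC38 the LXR and RXR list had 0 of 5 tested genes higher, also at an unadjusted p under 0.05 in limma, and the nuclear receptors Rxrb (-0.30) and Rxra (-0.25), partners of LXR, fell. The main LXR gene of these cells, Nr1h2, averaged 18.4 FPKM in OE and 18.7 FPKM in WT cells. Of 6 other LXR targets tested, 4 rose, the desaturase Scd1 (0.84), Arl4c (0.78), Srebf1 (0.29) and the phospholipid transfer protein gene Pltp (0.22), and Mertk, a receptor for dying cells, fell (-0.14). The bile acid pathway enzyme Hsd3b7, the only tested oxysterol enzyme of 6 listed, rose (0.71). Of 4 tested HDL and other ABC transporter genes, Abca7 (-0.29) and Abca2 (-0.27) fell and 0 rose (0 also at an unadjusted p under 0.05). Here and below, bracketed values are log2 fold changes, called with limma at an adjusted p of at most 0.0413.

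Of 10 lysosomal sterol genes tested in MC38, 3 were called higher and 3 lower, against 23.9% and 23.6% of all tested genes. The acid sphingomyelinase Smpd1 (0.49), the acid lipase Lipa, which frees cholesterol from lipoprotein esters (0.36), and the membrane glycoprotein Lamp2 (0.26) rose, and Scarb2 (-0.32), the transcription factor Tfe3 (-0.15) and Lamp1 (-0.11) fell. Of 14 genes of the non-vesicular sterol transfer list, which holds Vapa and Vapb beside the carriers, 4 rose, including Stard4 (0.93), Osbp (0.27) and Scp2 (0.25). In the same list 5 fell, including Gramd1b, which carries plasma membrane sterol to the endoplasmic reticulum (-0.92), Osbpl2 (-0.42) and Stard5 (-0.28). Of 8 droplet and triglyceride genes the perilipin Plin3 rose (0.48), and the acyltransferase Dgat2 (-0.63) and the lipase Pnpla2 (-0.27) fell. Among the lipoprotein receptors that Mylip marks, Lrp8 rose (0.31), at 23.2 FPKM in OE and 18.5 FPKM in WT cells, while Vldlr stood at 23.6 FPKM in OE and 23.4 FPKM in WT cells. Of 4 other lysophospholipid acyltransferases Mboat1 rose (0.28). Some calls did not hold when single libraries were left out. Mertk was not called when any library but WT 1 was left out (adjusted p up to 0.107), Tfe3 without OE 1 or 2 or WT 2, 3 or 4 (up to 0.105), Lamp1 without OE 2 (0.0584), and Pltp without OE 1 or 3 or WT 1, 2 or 3 (up to 0.151). With rescaling to a common total, Mertk, Tfe3 and Lamp1 were not called either (0.0559 to 0.0958), with chromosomes centred Mertk (0.551) was not, with a filter at 0.1 FPKM Mertk (0.05035) was not, and with no filter Scp2 (0.0612) and Pltp (0.105) were not.

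**Figure D4:**
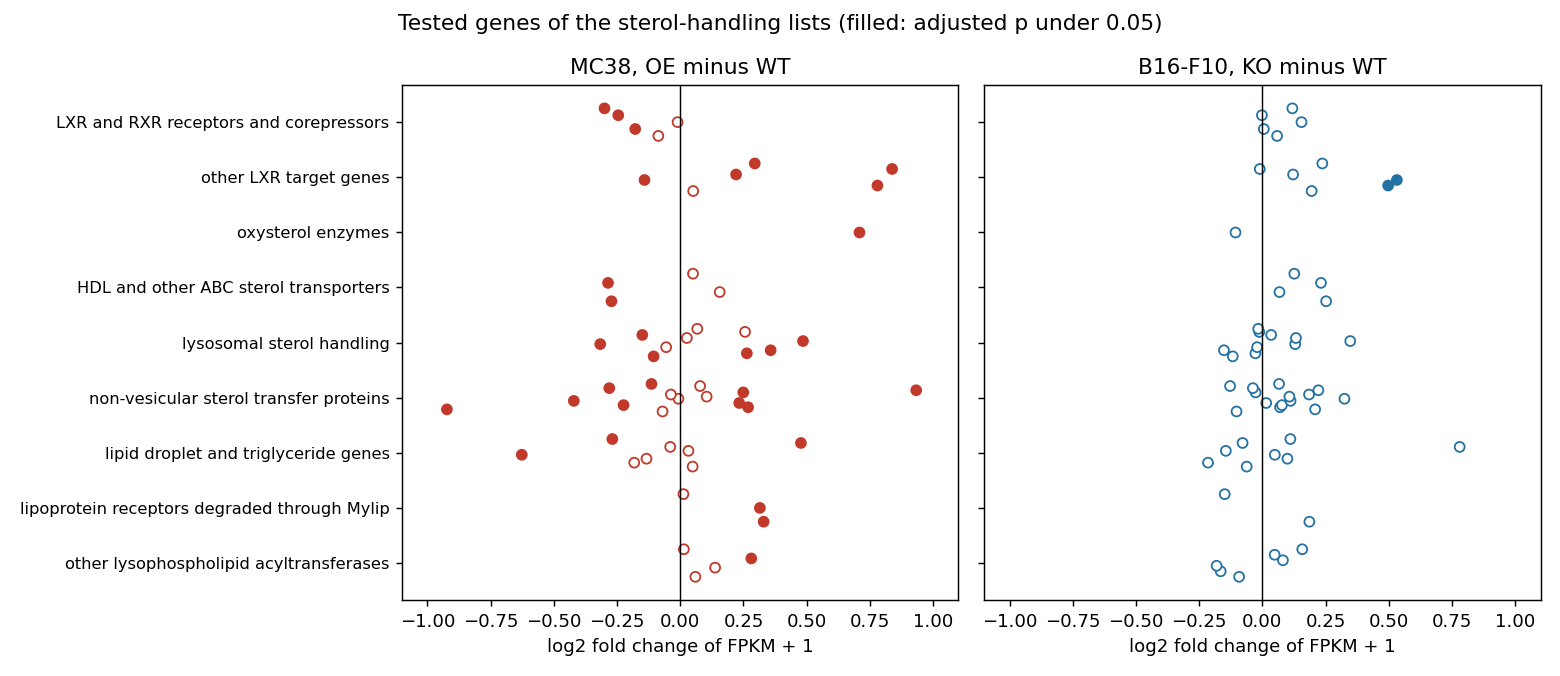
Fold change of FPKM + 1 on the log2 scale for every tested gene of the 9 sterol-handling lists, OE minus WT in MC38 (left) and KO minus WT in B16-F10 (right), filled where called. Calls lie on both sides of 0 in MC38, from Gramd1b at -0.92 to Stard4 at 0.93, and in B16-F10 only 2 other LXR targets are filled.

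In B16-F10 Pltp and Mertk were the genes of the 9 lists that were called. Pltp rose (log2 fold change 0.53, limma adjusted p = 0.00518), as it did in MC38, at 4.55 ± 0.299 FPKM in KO and 2.83 ± 0.0360 FPKM in WT cells, and stayed called without each single library. Mertk rose (0.50, limma adjusted p = 0.0391), opposite in sign to MC38, at 1.56 FPKM in KO and 0.820 FPKM in WT cells. It passed the filter through the KO libraries, and it was not called without KO 1, 2 or 3 (adjusted p = 0.126, 0.140 and 0.123) or WT 2, 3 or 4 (0.0520, 0.0749 and 0.0851), nor with no filter (0.0659) or chromosomes centred (0.0501). Both belong to the list of other LXR targets, of which 6 were tested. An unadjusted p under 0.05 in limma was reached by 4 of these 6, all higher, Mertk included. Of all genes tested in B16-F10, 2.23% were called and 21.3% had an unadjusted p under 0.05 in limma. Outside the LXR targets and the receptors marked by Mylip, the lists had 0 calls. An unadjusted p under 0.05 was reached there by 5 of 14 genes of the sterol transfer list, 3 of 4 transporters and 3 of 8 droplet genes. It was also reached by 2 of 10 lysosomal genes, 1 of 6 acyltransferases, and 0 of the LXR and RXR and oxysterol enzyme lists. Of the most abundant genes of these lists none was called: Lamp1 stood at 339 FPKM in KO and 372 FPKM in WT cells, Rab7 at 262 FPKM in KO and 266 FPKM in WT cells, Scp2 at 75.6 FPKM in KO and 77.1 FPKM in WT cells, Vapa at 43.1 FPKM in KO and 47.1 FPKM in WT cells, Plin3 at 44.0 FPKM in KO and 46.5 FPKM in WT cells and Abhd5 at 24.1 FPKM in KO and 25.4 FPKM in WT cells. The HDL receptor Scarb1 averaged 48.5 FPKM in KO and 44.3 FPKM in WT cells and Abca2 10.8 FPKM in KO and 8.95 FPKM in WT cells. The LXR gene Nr1h2 averaged 37.4 FPKM in KO and 33.9 FPKM in WT cells and the corepressor Ncor1 53.6 FPKM in KO and 51.4 FPKM in WT cells. Lrp8 averaged 9.41 FPKM in KO and 10.5 FPKM in WT cells, not called though the groups did not overlap (limma log2 fold change -0.15, unadjusted p = 0.0116, adjusted p = 0.122). Mboat2 averaged 22.5 FPKM in KO and 22.2 FPKM in WT cells, Lpcat2 16.8 FPKM in KO and 19.1 FPKM in WT cells, Hsd3b7 5.09 FPKM in KO and 5.56 FPKM in WT cells and Sult2b1 0.231 FPKM in KO and 0.173 FPKM in WT cells.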

How the data were processed

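Libraries of polyadenylated RNA were made with a strand-specific kit, per the labels. The authors deposited FPKM per gene symbol, in a separate table for each line. The submitters' processing notes name GRCm39 and DESeq2 without roles or versions, while aligner, counting tool and gene models go unnamed: not given in the sources used here. Columns were matched to samples by library name, with 0 left unmatched, and samples were grouped by title.

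Tests used limma 3.58.1 (R 4.3.3) on log2(FPKM + 1) (mean-variance trend, genes with a mean of at least 1 FPKM in the line), each line alone and with all 15 libraries for the difference between lines. Exact permutation tests, two-sided, were used for genes below the filter. Exon lengths and overlaps came from GENCODE M21 on GRCm38, whose coordinates do not match the build of the authors. Depth was estimated from low FPKM values, of which 84.7 to 87.7% lay within 0.1 of a whole number of fragments. Fragment numbers and limits cover counting error only. Replicate libraries differed by more than counting noise (chi-square over its degrees of freedom, 5.86 to 37.4), which separates them from a library deposited again but does not show that they are independent. Alternatives changed the pseudocount to 0.1, the filter, the scaling, the variance model, the library weights and the replicate block, centred chromosomes, or left out each library. Chromosomes were matched for 97.5% and 98.0% of tested genes in MC38 and B16-F10. From each list, up to 3 called genes with the highest and 3 with the lowest fold change were named, or the 2 most abundant where none was called. Nr1h2, Pltp and Vldlr in MC38, the marker genes and the overlapping genes Rmc1 and Emg1 were named outside this rule, after their values could be seen. The 10 genes and all lists were chosen with earlier results of these data known. Some listed genes are not reported here. Figures were drawn with matplotlib 3.10.9.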

Additional observations from a re-analysis of the deposited data

How the results depend on the processing

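In MC38 the 5 calls among the 10 genes, Soat2 included, held under every alternative that tested them, with 4 to 6 genes called. Soat2 was not tested with a mean of at least 5 FPKM, and its call is not used as support. Counts for all MC38 genes stayed within 1.5 times of 5107. In B16-F10 the count for all genes, 243, was 140 with a filter at 0.1 FPKM, 73 with no filter, 776 with library weights, 126 with chromosomes centred and 12 with the replicate block, and 23 to 414 when single libraries were left out, over which 0 to 3 of the 10 genes were called. With the replicate block 0 of the 10 genes were called in B16-F10 (adjusted p = 0.139 for Abca1, 0.149 for Nceh1 and 0.0928 for Lpcat3, and 0.0890 for Ssbp4 itself), and among other genes called, Pltp, Mertk and Pdgfrb in B16-F10 (0.0765 to 0.113) and Mertk, Tfe3, Lamp1, Scp2 and Pltp in MC38 (0.0546 to 0.144) were not called. Replicate numbers did not pair the samples: same-numbered libraries had correlations of -0.29 to -0.07 in MC38 and -0.30 to 0.17 in B16-F10, and not every library correlated best with its own number. The genes differing between the lines, 2510, were 1456 with the replicate block, and 4 of the 10 genes differed with no filter, since Soat2 (-1.08) and Abca1 (-0.37) then entered the comparison. Signs turned in 3 values, all of differences between lines that were not called: Nceh1 without MC38 WT 2 (-0.0086; range over left-out libraries -0.0086 to 0.070) and Soat1 without B16-F10 WT 1 (-0.020) or WT 2 (-0.0063; range -0.020 to 0.32). For Abca1 in MC38, the difference of 0.035 on the log2 scale passed the exact test and not limma without a filter. Over the single genes followed, 1029 of 1109 alternative values kept their direction and side of the threshold, genes not called in the main fit included. The calls in B16-F10 were less stable than this share. Abca1 kept its call in 8 alternatives and lost it in 9, Nceh1 kept it in 10 and lost it in 8, and Lpcat3 kept it in 15 and lost it in 3. Where not stated otherwise, the cause of a change was not tested. The limit set by depth was worked out for Abca1 in MC38, Soat2 in B16-F10 and Abcg1, and not for the other genes.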
